A study of Caenorhabditis elegans with 2 samples.

Results

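The 48 genes described here encode parts of the worm spliceosome and proteins that guide splicing, and they were chosen by name from the 19985 protein-coding genes of Caenorhabditis elegans. All 48 names were found in the annotation. They comprise 7 Sm proteins, 7 LSm proteins, 8 SR proteins, 5 RNA helicases and 21 further factors. The measurement was chromatin immunoprecipitation followed by sequencing (ChIP-seq) of MADF-10, a worm protein with a MADF domain, in 2 biological replicates that form 1 group. The worms were hermaphrodites of strain OP508, genotype unc-119(tm4063) III; wgIs508, in which wgIs508 is an integrated transgene that encodes MADF-10 with a C-terminal GFP-FLAG tag. They were synchronised by bleaching and starvation at the L1 larval stage and taken as whole young adults 68 h later. The antibody used for the pull-down recognises GFP. No source used here states the promoter of the fusion, its copy number or the cells that make it, and whole animals mix germline and body cells. Data of the control experiment named in the labels were not analysed here. Read depth is not stated in the sources, so signals were compared only within a list.

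The spliceosome removes introns from precursor messenger RNA. Its core is a set of small nuclear ribonucleoproteins (snRNPs), each a small nuclear RNA (snRNA) with a ring of Sm proteins, or of LSm proteins in the case of U6. SR proteins bind exons and recruit the machinery to splice sites, and RNA helicases drive its rearrangements. Worms also join a spliced leader to most messenger RNAs with the same machinery, and closely spaced genes on the same strand can be transcribed together as operons. Many annotated gene starts are therefore trans-splice sites downstream of the place where transcription begins.

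Listed MADF-10 regions, background included, lay at the promoters of most splicing genes, and 12 of the 48 (25%) had a reproducible peak there. The 12 were the helicase genes mog-4 and hel-1, the SR protein genes rsp-1, rsp-2 and rsp-6, the Sm genes snr-1 and snr-4, the LSm genes lsm-6 and lsm-7, and prp-19, prp-8 and teg-1. Reproducible means that the summit belonged to the authors' list of 1869 peaks that passed an irreproducible discovery rate threshold. Among all 19985 protein-coding genes the share was 6.38% (1275 genes). A region of any strength in the pooled list, which holds 30000 peaks and background regions, lay at 41 of the 48 (85.4%), against 39.4% of all genes. Signals in that list start at 12.7 and have a median of 23.3, and some members lie below this median, as prp-3 does at 14.2. The member's own coding start was the nearest at 29 of the 41. Within the genes that had a pooled region, 29.3% of the splicing genes and 16.2% of all genes held a reproducible peak. The authors' signal, a value of their peak caller with no unit, had a median of 62.6 over the 41 genes and 35.7 over the 7870 genes with a region. The 1869 reproducible peaks equal in number the pooled regions with a signal at or above that of their weakest, 92.3. Counts of reproducible peaks and pooled signals are therefore not separate measures. The 12 genes rest on 11 peaks, since rsp-1 and rsp-2 share theirs. No member lies on the X chromosome. In the replicates' own lists, cut to the 1869 strongest regions, 12 members (25%) were found in replicate 1, where 6.05% of all genes were, and 10 (20.8%) in replicate 2, where 6.4% were. The mean share was 22.9% ± 2.97 (SD, n = 2), against 6.22% ± 0.247 for all genes. These SDs measure the change between replicates for the same genes, not the spread between sets of genes. The difference between the members and all genes was not tested.

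**Figure D1:**
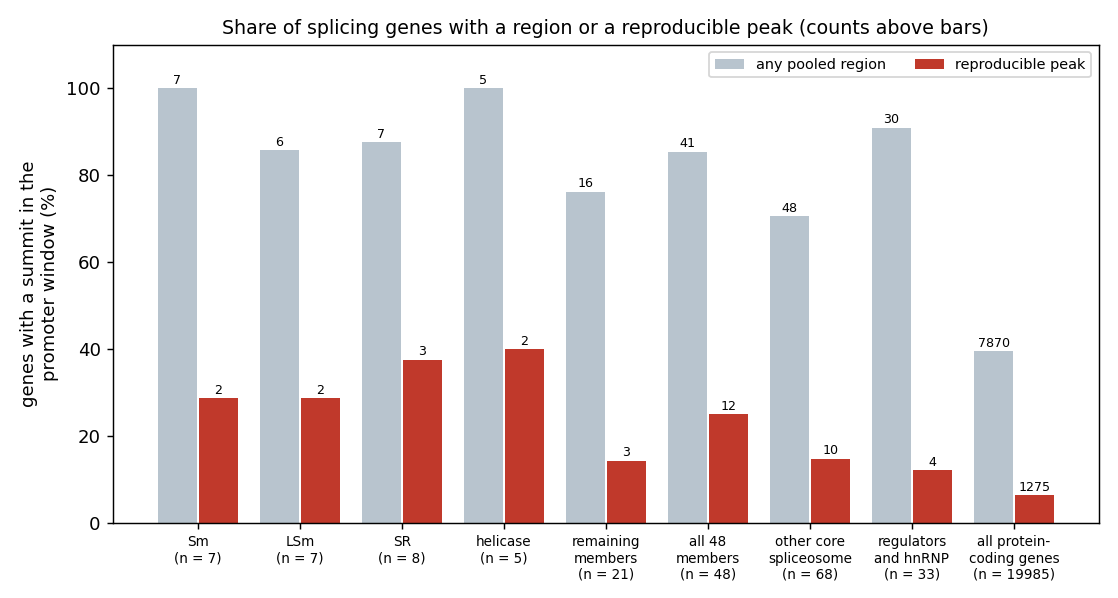
Percent of the genes of each class with a summit in the promoter window, for any pooled region (grey) and for a reproducible peak (red), with gene counts above the bars. Reproducible peaks lay at 25% of the 48 splicing genes and 6.38% of all protein-coding genes; the bars carry no error because each is a single list of genes.

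The DNA under 8 of these peaks is shown because 5 of them, those at rsp-6, rsp-1 with rsp-2, snr-1, hel-1 and lsm-7, hold the same 6 bases. Each line gives the summit base and 50 bases on either side from the RefSeq WBcel235 genome (ce11), 5′ to 3′ on the strand of the named gene, and capitals mark TGCGTC.
rsp-6 (chrIV:7791346-7791446, minus strand): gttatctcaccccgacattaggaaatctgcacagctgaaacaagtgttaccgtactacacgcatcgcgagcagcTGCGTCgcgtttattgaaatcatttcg
rsp-1, shared with rsp-2 (chrII:11453158-11453258, plus strand): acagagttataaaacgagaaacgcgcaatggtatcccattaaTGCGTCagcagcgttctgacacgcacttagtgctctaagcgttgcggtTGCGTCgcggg
snr-1 (chrIV:17087561-17087661, plus strand): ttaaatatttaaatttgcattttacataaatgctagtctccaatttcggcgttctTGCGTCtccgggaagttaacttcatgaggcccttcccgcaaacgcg
hel-1 (chrII:8329083-8329183, minus strand): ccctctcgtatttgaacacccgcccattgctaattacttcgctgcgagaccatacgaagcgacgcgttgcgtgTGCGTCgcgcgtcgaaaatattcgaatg
lsm-7 (chrIV:10933226-10933326, plus strand): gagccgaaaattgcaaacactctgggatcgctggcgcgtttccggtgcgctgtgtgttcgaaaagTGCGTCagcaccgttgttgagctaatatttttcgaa
mog-4 (chrII:14561775-14561875, minus strand): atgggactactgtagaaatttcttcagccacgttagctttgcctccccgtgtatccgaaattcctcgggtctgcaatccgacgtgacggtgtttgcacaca
prp-19 (chrIII:5172636-5172736, minus strand): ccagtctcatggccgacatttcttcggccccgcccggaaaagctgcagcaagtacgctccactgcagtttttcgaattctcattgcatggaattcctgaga
snr-4 (chrV:11980048-11980148, minus strand): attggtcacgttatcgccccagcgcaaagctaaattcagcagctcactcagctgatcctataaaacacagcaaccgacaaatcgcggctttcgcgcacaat
The first 5 sequences hold TGCGTC 6 times, and the last 3, which include the strongest 2 peaks of the set, do not hold it.

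Counted on both strands, TGCGTC occurred in 6 of the 11 reproducible peaks at splicing genes (54.5%), the sixth being that at lsm-6. It occurred in 240 of 1553 other reproducible nuclear peaks away from tRNA genes (15.5%), in 3.05% of the weak regions, meaning pooled regions with a signal at or below the list's median, and in 2 of the 28 weaker regions at splicing genes. None of the 22 windows of the same length taken 300 bp to either side of the 11 summits held it. In the 300 bases from 250 before to 50 after the outermost gene start it was found in 12.5% of the members and 8.8% of all nuclear genes. These 300 bases hold some of the summits, as at lsm-6 (105 bp upstream), and miss others, as at snr-1 (438 bp upstream). They therefore do not give a reading of the promoters apart from the summits. The hexamer was singled out after its values were seen, and it ranks 6 among hexamers by their excess at other peaks over the flanks. The hexamer that leads that ranking, GAGAGA, was present at 25.4% of the other peaks and at 0 of the 11. With windows that reach 100 bases to either side, GAGAGA was found at 1 of the 11 and at 40.7% of the other peaks, and TGCGTC at 6 and at 23.1%. In the 300-base promoters of all genes GAGAGA was found at 21.8%. Each of the other hexamers searched, also on both strands, occurred at 0 to 2 of the 11 summits. TATAAA occurred at 2 (18.2%), against 4.83% of the other reproducible peaks, and in the wider windows at 4, against 12.9%, while 38% of all promoters hold it. TTTCAG occurred at 1, against 7.53% of the other peaks and 51.7% of all promoters. GTTCGA was at 1 as well, against 5.47% and 9.91%. The letters GGCGCG were found at 1, against 9.4% and 4.6%, and in the wider windows at 4, against 14.2%. No summit held GCGCGC, which 8.95% of the other peaks and 3.57% of all promoters hold. The palindrome CACGTG was also at 0, against 5.22% and 5.85%. These differences rest on 11 peaks and were not tested. G and C made up a median of 49.5% of the bases at the 11 summits and 35.1% in their flanks, close to the 48.5% and 35.6% of the other reproducible peaks.

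Among the Sm genes, snr-1 and snr-4 had reproducible peaks, and all 7 had a pooled region. Sm proteins form the ring that clamps the snRNAs of the major snRNPs. At snr-1 (WBGene00004914), which encodes SmD3, the peak (chromosome IV, 17087522 to 17087737) reached a signal of 189 with the replicates pooled, 65.9 in replicate 1 and 123 in replicate 2. Both replicates stood well above the medians of their lists, by 6.09 and 6.86 times. The summit lay 438 bp upstream of snr-1 and 173 bp upstream of snx-13 on the opposite strand. At snr-4 (WBGene00004917), which encodes SmD2, the peak on chromosome V from 11979996 to 11980173 had signals of 147, 53.6 and 98.1 in the pooled list and replicates 1 and 2. Its summit lay 375 bp upstream of snr-4 and 20 bp upstream of an snRNA gene on the other strand (WBGene00014291, named C52E4.8 in RefSeq, 11980118 to 11980261). It was the lone summit among the members' regions within 200 bp of an annotated tRNA, snoRNA or snRNA gene, and whether it belongs to the protein-coding or the snRNA gene was not tested. The other 5 Sm genes stayed below the weakest reproducible peak, whose signal was 92.3. Their pooled signals were 70.2 at snr-3 (SmD1), 67.8 at snr-6 (SmE), 62.6 at snr-2 (SmB), 35.3 at snr-7 (SmG) and 21.3 at snr-5 (SmF). At snr-5 neither replicate's own list held a region.

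The LSm genes had a median pooled signal of 65.8, close to the 67.8 of the Sm genes. Their highest signal was lower, at 98.8 against 189, and their calls changed with the replicate used. LSm proteins form a nuclear ring on the U6 snRNA and a cytoplasmic ring that takes part in messenger RNA decay. The reproducible peaks at lsm-6 (WBGene00003080) and lsm-7 (WBGene00003081) had the smallest pooled signals of the 12 genes. At lsm-6, on chromosome I from 1701163 to 1701290, pooled signal was 98.8, with 49.4 in replicate 1 and 55.9 in replicate 2, and the region ranked 809 in replicate 1 but 2419 in replicate 2. At lsm-7, on chromosome IV from 10933066 to 10933485, it was 95.3, 37.7 and 64.5, with ranks of 1391 and 1895. Neither was among the 1869 strongest regions of replicate 2, so without replicate 1 no LSm gene counted. The lsm-7 region missed that cut narrowly, and its signals were alike relative to the list medians, at 3.49 and 3.61 times. The lsm-7 summit lay 226 bp upstream of lsm-7 and 73 bp upstream of dnc-1, which encodes the dynactin subunit p150 and runs the other way. A second reproducible peak, with a signal of 95.6, lay in the coding sequence of lsm-7 (10934007 to 10934193) and was the only one inside a member outside its promoter window. Pooled signals at lsm-3, lsm-5, lsm-8 and lsm-1 were 78.3, 53.2, 33.0 and 20.6. The summit of the lsm-3 region was 92 bp from a start of Y62E10A.23 and 971 bp from that of lsm-3. The lsm-4 window held no pooled region, and only replicate 1 listed one there, with a signal of 10.3.

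Of the 8 SR protein genes, rsp-1, rsp-2 and rsp-6 had reproducible peaks, and their signals were high in both replicates. SR proteins carry arginine-serine repeats and take part in both constitutive and alternative splicing. At rsp-6 (WBGene00004703), whose product resembles mammalian SRSF3, the peak (chromosome IV, 7791261 to 7791534) reached 258 pooled, 86.4 in replicate 1 and 172 in replicate 2. It ranked 234, 237 and 253 in these lists. The genes rsp-1 (WBGene00004698) and rsp-2 (WBGene00004699) lie head to head, and the peak between them on chromosome II from 11453121 to 11453312 had signals of 202, 71.6 and 126. The summit was 253 bp upstream of rsp-2 and 766 bp upstream of the nearest coding transcript of rsp-1. A non-coding transcript of rsp-1 begins nearer, so that the summit lies 154 bp upstream of the annotated end of the gene. The member next below the threshold was also an SR gene, rsp-8. Among the remaining SR genes, pooled signals were 85.7 at rsp-8, the worm Transformer-2 homologue, 71.4 at rsp-3, the homologue of SF2/ASF, and 70.2 at rsp-5. The rsp-5 region was shared with the Sm gene snr-3, which lies head to head with it, and reached 59.5 in replicate 2 but 13.0 in replicate 1. In replicate 1 the strongest region in the window was another one, and the summits of the lists spanned 693 bp. At rsp-4, the SC35 homologue, the pooled signal was 34.2 and replicate 1 listed no region, while rsp-7 had no pooled region.

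The helicase genes included the strongest region of all 48, at mog-4, and all 5 had a pooled region. The DEAH helicases mog-1, mog-4 and mog-5, homologues of yeast PRP16, PRP2 and PRP22, were named for the masculinised germline of their mutants. At mog-4 (WBGene00003392), on chromosome II from 14561664 to 14561995, pooled signal was 341, with 99.3 in replicate 1 and 243 in replicate 2, with ranks of 133, 181 and 133. The summit lay 226 bp upstream of the gene and in no other gene's window. At hel-1 (WBGene00001840), the UAP56 homologue that couples splicing to messenger RNA export, the peak on chromosome II from 8328923 to 8329342 had signals of 154, 45.4 and 107. Its summit fell 263 bp upstream of hel-1, in an intron of C26D10.3. The remaining helicase genes had pooled signals of 79.7 at mog-5, 35.3 at mog-1 and 29.97 at snrp-200, which encodes BRR2 of the U5 snRNP. The mog-1 region had its summit nearer to alx-1, at 378 bp, than to mog-1, at 758 bp.

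Among the other 21 factors, reproducible peaks were found at prp-19, prp-8 and teg-1, and at none of the 7 listed genes for proteins of the U1 and U2 snRNPs. With a wider window, 2000 bp upstream to 500 bp downstream of a start, rnp-7 of these 7 counted as well. PRP-19 is the ubiquitin ligase at the heart of the PRP19 complex, which activates the spliceosome. The prp-19 (WBGene00020423) peak on chromosome III from 5172555 to 5172818 reached 328 pooled, 114 in replicate 1 and 218 in replicate 2. Its summit was 641 bp upstream of prp-19 but 34 bp upstream of K10D2.5 on the opposite strand, so it was nearer to the neighbour. PRP-8 is the U5 protein that forms the scaffold of the catalytic centre. At prp-8 (WBGene00004187), on chromosome III from 8163884 to 8164106, signals were 206, 53.6 and 152, and the summit lay 358 bp upstream. At teg-1 (WBGene00006563), the homologue of CD2BP2 of the U5 snRNP, signals were 107, 35.8 and 70.8 on chromosome III from 11317047 to 11317466. That summit lay in an intron of teg-1, 974 bp inside the gene and 202 bp upstream of an internal start, and with the outermost start alone teg-1 did not count.

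The 7 listed genes for proteins of the U1 and U2 snRNPs had the lowest median pooled signal of the classes. Of these 7, 6 had a pooled region, with a median of 21.6, against 35.7 for all genes with a region. In the replicates' own lists the order against all genes was not the same. Replicate 1 listed regions at 2 of the 7, at a median of 1.72 times its list median against 1.28 for all genes, and replicate 2 at 5, at 1.31 against 1.43. Signals ran from 52.0 at rnp-2, which encodes U1A, and 44.7 at teg-4, which encodes the U2 protein SF3B3, through 22.1 at prp-21 and 21.1 at repo-1 (SF3A1 and SF3A2) to 16.4 at rnp-7 (U1-70K) and 15.5 at mog-2 (the U2 protein A'). At rnp-3, the gene for U2B'', no list held a region. The 3 genes for recognition of the 3' splice site and branch point had no reproducible peak either. The region at uaf-2, for the small subunit of U2AF, had a signal of 60.1, that at the branch point binding protein gene sfa-1 had 41.1, and uaf-1, for the large subunit, had none in any list. Of the 8 genes for the U4/U6.U5 tri-snRNP and its partners, prp-31 reached 59.9, eftu-2 25.4, mfap-1 18.9 and prp-3 14.2, and prp-6 and prp-38 had no pooled region. Of the members with no snRNP class, mog-3, a gene of germline sex determination, had a signal of 79.7, and prp-17 had no pooled region.

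**Figure D2:**
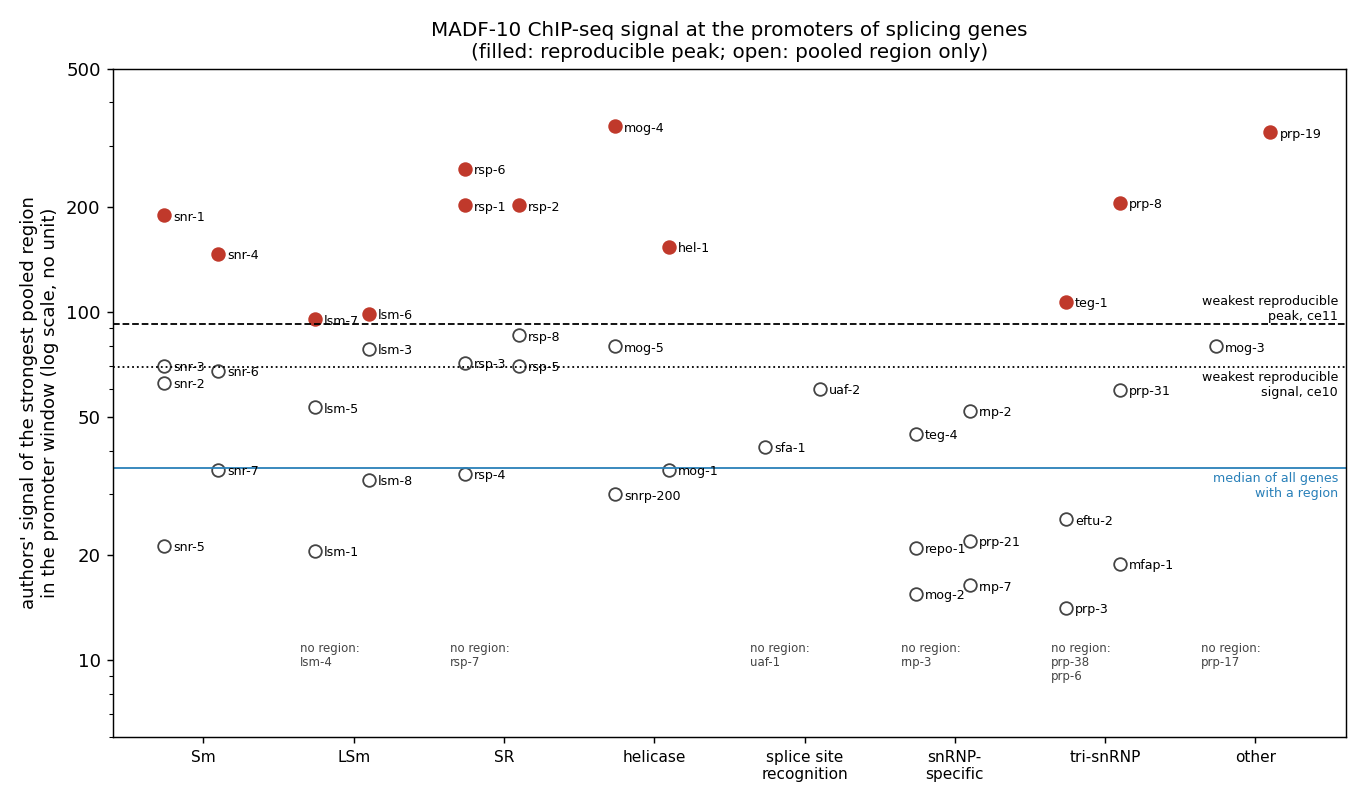
Authors' signal of the strongest pooled region at each splicing gene, on a log axis, by class; filled points are reproducible peaks, open points pooled regions only, and genes without a region are named at the bottom. Points of the Sm, LSm, SR and helicase classes straddle the dashed line at 92.3, whereas all 6 points of the snRNP-specific class and both of the splice site class lie below 69.6, the dotted line.

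Compared by class, the shares of reproducible peaks rest on 2 to 4 genes each, and the differences were not tested. The counts were 3 of 8 SR genes (37.5%), 2 of 5 helicase genes (40%), 4 of 14 Sm and LSm genes (28.6%) and 3 of the 21 others (14.3%). They hold for the listed members only. Further helicase genes fall in the wider core list described below, and those named here had no reproducible peak. Pooled signals were 45.9 at eif-4A3, 44.5 at ddx-23, 42.2 at ddx-15 and 41.2 at emb-4, while ddx-35 and ddx-46 had no pooled region. The 3 SR genes rest on 2 peaks, and in a narrow window (500 bp before to 100 bp after a start) 2 of 8 SR genes counted while the Sm and LSm counts stayed at 2 each, which turns their order. Median pooled signals of the genes with a region were 85.7 for SR, 79.7 for helicases, 67.8 for Sm and LSm together and 42.9 for the others. In units of the median of each list, the SR genes stood at 2.55 in replicate 1 and 3.32 in replicate 2, the helicases at 2.78 and 2.65, Sm and LSm at 2.44 and 2.57, and the others at 2.08 and 1.63. The SR and helicase classes changed order between replicates, and the other factors were lowest in both. All genes with a region stood at 1.28 and 1.43.

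The member just inside the authors' threshold was lsm-7, at 95.3, and the member just outside was rsp-8, at 85.7, with the weakest reproducible peak at 92.3. On build ce10 the authors' reproducible list is longer, with 2878 peaks down to a signal of 69.6, although the ranked pooled signals of the builds differ by at most 1.08%. At that signal in the ce11 pooled list, 19 of the 48 members (39.6%) would pass, against 9.51% of all genes. The 7 added are rsp-8, mog-5, mog-3, lsm-3, rsp-3, and the pair rsp-5 and snr-3. With them, 6 of 8 SR genes lie above the line, though rsp-1 and rsp-2 share 1 region and rsp-5 shares its own with snr-3. The rsp-3 summit was nearer to spin-4, at 141 bp, than to rsp-3, at 255 bp. Its signal was 17.6 in replicate 1 and 51.2 in replicate 2.

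The replicates gave close values for most of the 12 genes with reproducible peaks. These peaks had passed the authors' irreproducible discovery rate threshold, so height and closeness in both replicates are in part built into the choice. Expressed as log2 of the signal over the median of its own list, mog-4 stood at 3.48 ± 0.40 (SD, n = 2), prp-19 at 3.50 ± 0.15 and rsp-6 at 3.13 ± 0.19. The pair rsp-1 and rsp-2 stood at 2.77 ± 0.06, prp-8 at 2.70 ± 0.55, snr-1 at 2.69 ± 0.12, snr-4 at 2.38 ± 0.10 and hel-1 at 2.32 ± 0.36. At the lower end lsm-6 had 1.92 ± 0.39, teg-1 1.85 ± 0.18 and lsm-7 1.83 ± 0.03. The values of mog-4 and prp-19 differed by less than their SDs, as did those of lsm-6 and teg-1. Summits of the same peak lay within 113 bp of each other across the pooled and replicate lists at all 12. Over the 33 members with a region in all 3 lists the median SD was 0.20, and over all 5844 genes with regions in both replicates it was 0.33. Over the 1263 of these genes with a reproducible peak it was 0.32. The member with the widest spread was sfa-1, at 22.5 in replicate 1 and 12.1 in replicate 2. Its summit lay 70 bp downstream of the start in replicate 1 and 55 bp upstream in replicate 2. The next were snr-3 and rsp-5, where the replicates' values come from different regions. Summits of the 3 lists lay within 200 bp of each other at 27 of the 33 members. At the rest, such as lsm-3 (2680 bp) and snrp-200 (671 bp), the SD need not compare the same region.

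**Figure D3:**
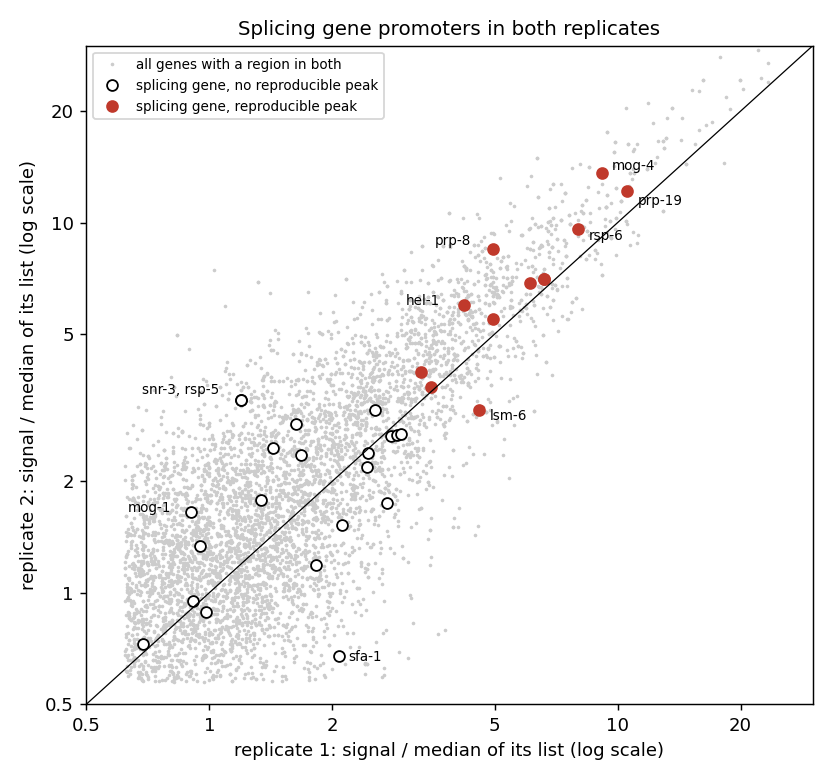
Signal of the strongest region in the promoter window divided by the median signal of its list, replicate 2 against replicate 1, on log axes; grey dots are all genes with a region in both replicates, circles are splicing genes and the line marks equal values. The 12 genes with reproducible peaks (filled, rsp-1 and rsp-2 at 1 point) lie at 3.13 or above on both axes, and sfa-1 and the pair snr-3 and rsp-5 lie far from the line.

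Most summits lay upstream of the splicing genes, and many of them also fell in the window of a neighbour. All 12 genes with reproducible peaks had the summit upstream of their nearest coding start, from 105 bp at lsm-6 to 766 bp at rsp-1. The median was -258 bp, where all genes with a reproducible peak had -263 bp. At 9 of the 12 genes the summit also lay in another gene's window, and of all genes with a reproducible peak 48% shared theirs. At prp-19, rsp-1, snr-1 and lsm-7 the coding start of another protein-coding gene was nearer than the member's. At snr-4 the start of the snRNA gene, which these counts leave out, was nearer, at 20 bp against 375 bp. When a peak was assigned only to the closest coding start, 8 members (16.7%) and 4.84% of all genes had one. Other genes whose windows hold these summits are bath-42 at prp-8, C26D10.4 at hel-1, mcm-10 at teg-1, emb-1 at prp-19 and Y71G12B.13 at lsm-6. Of the 48 members, 21 (43.8%) have a gene that starts within 1000 bp upstream on the opposite strand, against 17.7% of all genes. Over all genes, 14.1% of those with such a neighbour and 4.73% of those without had a reproducible peak. Among the members the shares were 5 of 21 (23.8%) with and 7 of 27 (25.9%) without. These counts use the outermost coding start of each gene, by which rsp-1 and rsp-2 lie over 1000 bp apart and count as without. By the annotated gene ends, a choice made after seeing the data, they count as with, and the shares become 7 of 23 (30.4%) and 5 of 25 (20%), against 14.0% and 4.73% of all genes. The order of the shares among the members thus turns, while both stay above those of all genes.

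**Figure D4:**
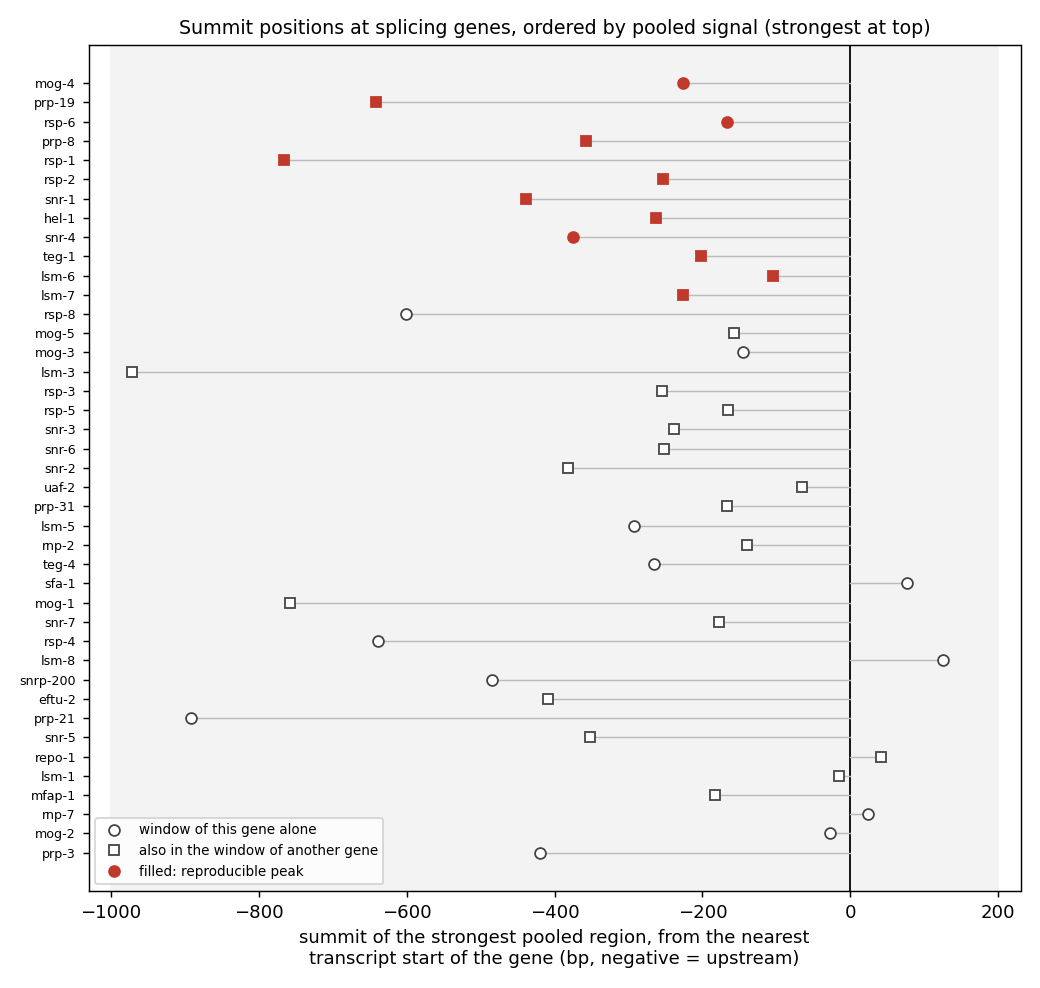
Distance in bp from the nearest coding transcript start of each splicing gene to the summit of its strongest pooled region, genes ordered by signal; squares mark summits that also lie in another gene's window, filled marks reproducible peaks, and the shaded band is the promoter window. Filled marks all lie between -105 and -766 bp, and 4 open marks lie downstream of the start.

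Several members without a peak of their own lie just downstream of a gene with one. A gene on the same strand ends within 500 bp upstream of 14 of the 48 members (29.2%) and of 18.1% of all genes. Of these 14 members 2 had a peak of their own, rsp-6 and lsm-6, and of the other 34 members 10 had one, where the shares over all genes were 5.31% and 6.62%. In 6 of the 14 cases (42.9%) that upstream gene had a reproducible peak at its own promoter, against 10.3% of all genes so placed, and in 5 of these 6 the member had none. The gene upstream of rnp-7 is syf-2, itself a gene for a spliceosome component, which ends 5 bp away and had a pooled signal of 135, with 40.3 in replicate 1 and 100.2 in replicate 2. Upstream of prp-38 lies plrg-1, the homologue of a partner of PRP19, with 141, 59.7 and 82.0. The others were sqd-1 upstream of lsm-8 (229), smrd-1 upstream of prp-3 (125) and acs-2 upstream of lsm-5 (102). At lsm-6, which has its own peak, the upstream gene ubc-3 had 216. Whether these pairs are transcribed together was not tested. By class, 5 of the 7 genes for U1 and U2 proteins, 4 of the 7 LSm genes and 0 of the 7 Sm genes have such an upstream gene, and of the 5 only rnp-7 has one with a reproducible peak.

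Reproducible peaks were also found at other genes of the pathway, and the difference in share from the 48 members was not tested. Of 68 further core and associated spliceosome genes 10 (14.7%) had one and 48 (70.6%) had a pooled region. Of 33 splicing regulators and hnRNP genes 4 (12.1%) had one and 30 (90.9%) had a pooled region. The strongest in the core list were spk-1, the SR protein kinase, at 228, the cyclophilin cyn-4 at 151 and plrg-1 at 141. The next were syf-2 (135), acin-1 (134) and cacn-1, the worm cactin (124). The last 4 were snrp-40.1 (115), prp-40 of the U1 snRNP (108), smu-1 (108) and cyn-10 (99.2). In the regulator list hrpk-1 had 254, with 107 in replicate 1 and 147 in replicate 2, ahead of swp-1 (145), rsr-1 (144) and hrpa-1 (139). The rsr-1 signal came mainly from replicate 2, where it was 123, against 14.2 in replicate 1. The region counted for swp-1, 899 bp from its start, is shared with the ribosomal protein gene rpl-23. At the ce10 signal 12 of the 33 regulators (36.4%) would pass, beside 39.6% of the members.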

How the data were processed

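Chromatin bound by MADF-10 fused to GFP was pulled down with an anti-GFP antibody and sequenced in 2 biological replicates, per the labels. Per the deposited readme files, the authors called peaks and background regions on each replicate and on both replicates pooled, each against a control file, and kept as reproducible those that passed an irreproducible discovery rate (IDR) threshold. Not given in the sources used here are the aligner, peak caller, threshold and read depth. Regions were ranked by the authors' signal value (column 7 of the deposited lists), which was compared within a list only. The deposited −log10 q values were not used, since they end at a ceiling. Only the signal values of the ce10 lists were used.

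Ensembl release 115 on WBcel235 (the ce11 assembly) gave 19985 protein-coding genes. A region belonged to a gene when its summit fell between 1000 bp before and 200 bp after the start of a coding transcript, and the strongest such region was taken. The assignment was checked on simulated summits. Python 3.11.15, pandas 2.3.3 and matplotlib 3.10.9 were used. The members, their classes and the other gene lists were chosen with earlier results of these data known, so lists are described by counts beside those of all genes, without tests. With 1 group of 2 replicates no conditions could be compared. Named genes were the members with a reproducible peak, those just below, members needed to account for a class, neighbours that share a summit, and other splicing genes with a reproducible peak. The hexamer TGCGTC and the same-strand genes singled out with their own peaks were chosen after their values were seen. The alternatives were other promoter windows, other choices of start, each replicate alone, stricter and looser thresholds, overlap in place of the summit, and gene ends in place of coding starts for neighbours.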

Additional observations from a re-analysis of the deposited data

How the results depend on the processing

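With each replicate alone (the other left out), the number of members with a peak was 10 to 12 and the members' median signal over that of all genes with a region 1.78 to 1.91, against 1.75 in the pooled list. The LSm genes with a peak numbered 0 to 2. Of 96 recomputed values 84 stayed within 1.5 times the reported count or within the spread between replicates. Counting each summit for its nearest coding start alone left 1 Sm gene, 1 LSm gene and 2 of the regulators, with a median signal ratio of 1.59. The wide window (2000 bp upstream to 500 bp downstream) gave a ratio of 1.88. With the stronger 50% of the peaks 0 LSm genes and 3 other core spliceosome genes remained. The signal of the weakest ce10 peak as threshold, added after the data were seen, gave 19 members, 6 SR genes and 12 regulators. In every setting run the members' share with a peak (16.7% to 39.6%) was above that of all genes (3.33% to 9.51%). No paired analysis was possible because there is 1 group. Read depth is unknown here, so a gene without a region is not shown to be unbound. Whether other worm factors bind the same places was not tested.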
